A study of Mus musculus with 37 samples.

Results

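The Polycomb system is made of the protein complexes PRC2, which methylates lysine 27 of histone H3, and PRC1, which attaches ubiquitin to histone H2A and compacts chromatin. Together they keep developmental regulators of other lineages silent in differentiated cells such as neurons. Many of their subunits exist as paralogs, and accessory proteins that exclude each other divide each complex into subtypes. The genes described here are 33 listed subunits, 12 of PRC2 and 21 of PRC1, out of 48795 genes counted in the hippocampus. They were listed by name, with no threshold on a measured value.

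RNA was sequenced from the hippocampi of male mice on a C57BL/6J background, with 3 controls and 3 Kdm1a-ifKO mice and 1 library per mouse. Kdm1a encodes a lysine demethylase that acts on histone H3. Kdm1a-ifKO mice carried Kdm1a alleles with loxP sites around exons 5 and 6 (Kdm1a f/f) and the Camk2a-creERT2 transgene. Controls, called WT in the labels, were littermates without creERT2. Mice of both groups received tamoxifen at 8 weeks of age, and the age at which the RNA was taken was not given in the sources used here. The Camk2a promoter restricts recombination to principal neurons of the forebrain, so interneurons, glia and vascular cells of the same tissue kept Kdm1a. In such bulk tissue, fewer cells of a type and less RNA per cell cannot be told apart. Loops held by the architectural protein CTCF came from 1 ChIA-PET library of sorted nuclei of hippocampal excitatory neurons that were WT for Kdm1a and expressed the Sun1/sfGFP nuclear tag under Camk2a-creERT2. The mice of this loop library were adult and had also received tamoxifen, 1 month before their nuclei were isolated. No loop library of Kdm1a-ifKOs was analysed here.

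The 6 RNA libraries held between 18985542 and 19469947 counts. Kdm1a mRNA stood at 79.5, 81.1 and 79.6 CPM (counts scaled to library size by TMM) in controls and at 39.3, 36.9 and 38.4 CPM in Kdm1a-ifKOs. Its log2 fold change (log2FC, Kdm1a-ifKO over control) was -1.07 (standard error 0.0559, adjusted p = 6.24e-08). Adjusted p-values throughout are from the quasi-likelihood F test of edgeR, Benjamini-Hochberg adjusted over 16799 genes. On the second principal component of the libraries, control replicate 3 and Kdm1a-ifKO replicate 2 stood apart from the other 4. Summed markers of microglia (6 genes) ranged from 262 to 289 CPM in controls versus from 303 to 385 CPM in Kdm1a-ifKOs, with 3 of the 6 genes called higher. Those of astrocytes (5 genes) ranged from 1590 to 1720 CPM and from 1860 to 2040 CPM, with 1 called higher. Interneuron markers (6 genes) ranged from 808 to 878 CPM and from 783 to 814 CPM, with 1 called lower. Those of choroid plexus (4 genes) ranged from 34.2 to 57 CPM and from 63.4 to 69.4 CPM, with 1 called higher, Kl at a log2FC of 1.28, while Ttr had -1.49 and was not called. Hippocampal markers (8 genes) summed to between 5490 and 6110 CPM over all libraries, and no listed marker of any cell type was at 0 in a library.

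In Kdm1a-ifKO hippocampi, 2 of the 33 subunit genes rose, and both belong to PRC2. Epop, an accessory subunit that links PRC2 to the elongin BC proteins, rose 1.74-fold, and Ezh1, a catalytic subunit typical of non-dividing cells, rose 1.17-fold. None of the 33 fell, and none of the 21 PRC1 subunits was called in either direction. Whether PRC2 and PRC1 differ was not tested, as this split rests on 2 calls. The call of Ezh1 was lost without some single libraries. The 2 increases were 6.06% of the members, against 6.04% of all tested genes called higher, so that the share of Polycomb subunits that rose was near the background. For decreases the background was 2.82%, and for either direction 8.85%. With a log2FC over 0.5, only Epop was called, which is 3.03% of the members against 3.15% of the tested genes.

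All 33 genes passed edgeR's filter on low counts. Their log2FC ranged from -0.48 (Scml2) to 0.80 (Epop) with a median of -0.01, 15 of them above 0 and 18 below, and the median over all tested genes was -0.00342. An absolute log2FC under 0.25 was measured for 31 subunits, or 93.9%, against 74.1% of all tested genes. The subunits were also more abundant than the typical tested gene, with a median of 42.5 CPM in controls against 18.4 CPM, and the part of this abundance in their narrower range was not tested. The 95% interval of the log2FC lay within ±0.5 for 26 of the 31 genes not called and within ±0.3 for 24, at a median standard error of 0.0661 over the 33. Their lowest adjusted p was 0.156.

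**Figure D1:**
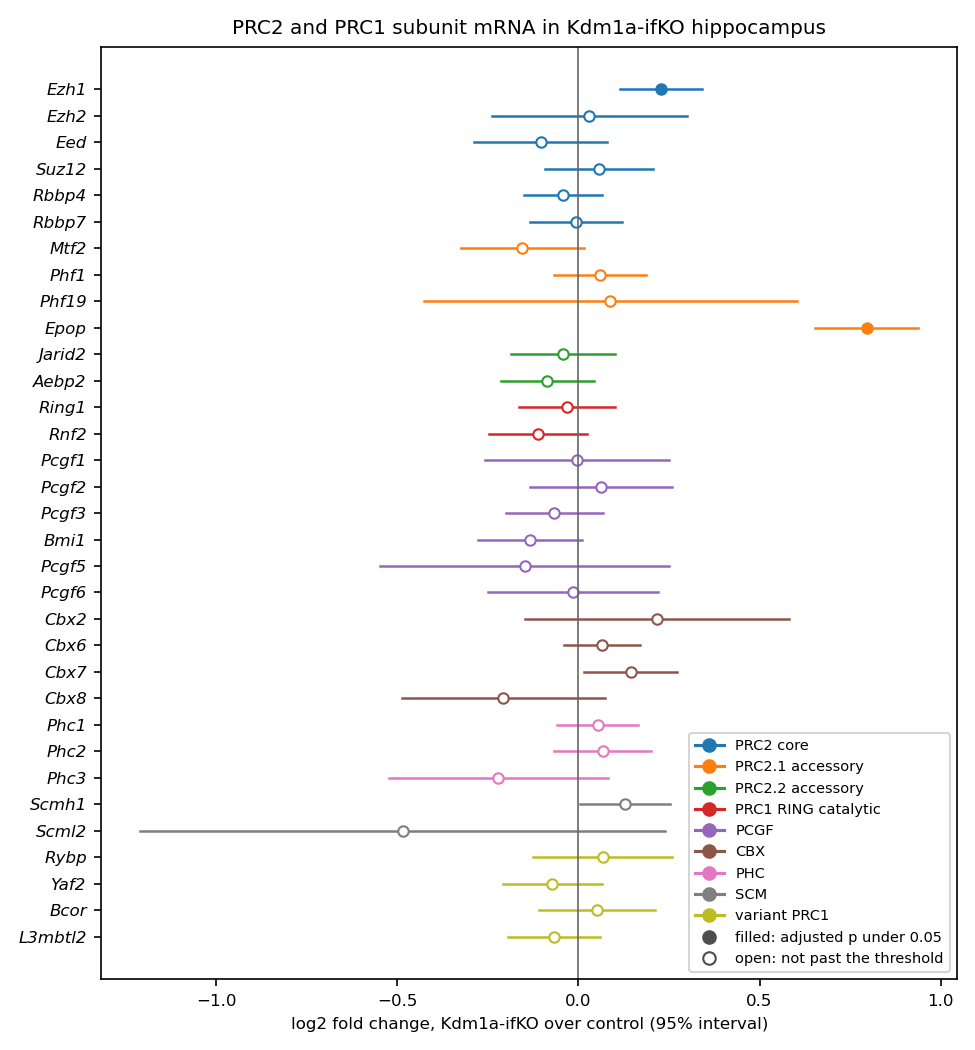
Log2 fold change of each subunit mRNA (x axis, Kdm1a-ifKO over control, 3 mice per group), with subunits on the y axis grouped by colour into subcomplexes. Points are the fitted values and lines their 95% intervals. Filled points had an adjusted p under 0.05. Epop at 0.80 and Ezh1 at 0.23 are the filled points, and the widest interval belongs to the scarce Scml2.

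The level of each mRNA was compared between subunits as TPM, that is per unit of summed exon length. In controls, Rbbp7 led with 182 ± 7.08 TPM (SD, n = 3), followed by Cbx6 with 163 ± 5.43 TPM and Yaf2 with 132 ± 7.68 TPM (n = 3 each). Rbbp7 encodes a histone-binding protein that is shared with other chromatin complexes, Cbx6 a chromodomain subunit of PRC1, and Yaf2 an adaptor of variant PRC1. Each of these genes was separated from the next over the control libraries. Next came Ezh1 with 61.2 ± 2.06 TPM and overlapped Ring1, a ubiquitin ligase of PRC1, at 56.6 ± 2.83 TPM (n = 3 each). Below Ring1 lay a group of 7 subunits between 44.1 and 49.9 TPM whose neighbours in the order overlapped, namely Rbbp4, Phc1, Phf1, Phc2, Cbx7, Bmi1 and Epop. At the bottom were Pcgf5 with 1.66 TPM, Phf19 with 1.00 TPM and Scml2 with 0.611 TPM, 298 times below Rbbp7. Of the 32 pairs of neighbours in this order, 15 did not overlap over the 3 control libraries and 17 did. Epop moved within the order from 44.1 ± 2.31 to 76.9 ± 2.75 TPM (n = 3 each), beside Ezh1 at 72.1 ± 1.76 TPM (n = 3) in Kdm1a-ifKOs. The order depends on the length used. With the longest annotated transcript, Epop stood at 60.3 TPM and Ezh1 at 100.0 TPM in Kdm1a-ifKOs, and in CPM, without division by length, Cbx6 ranked above Rbbp7 in controls with 434 against 133 CPM.

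**Figure D2:**
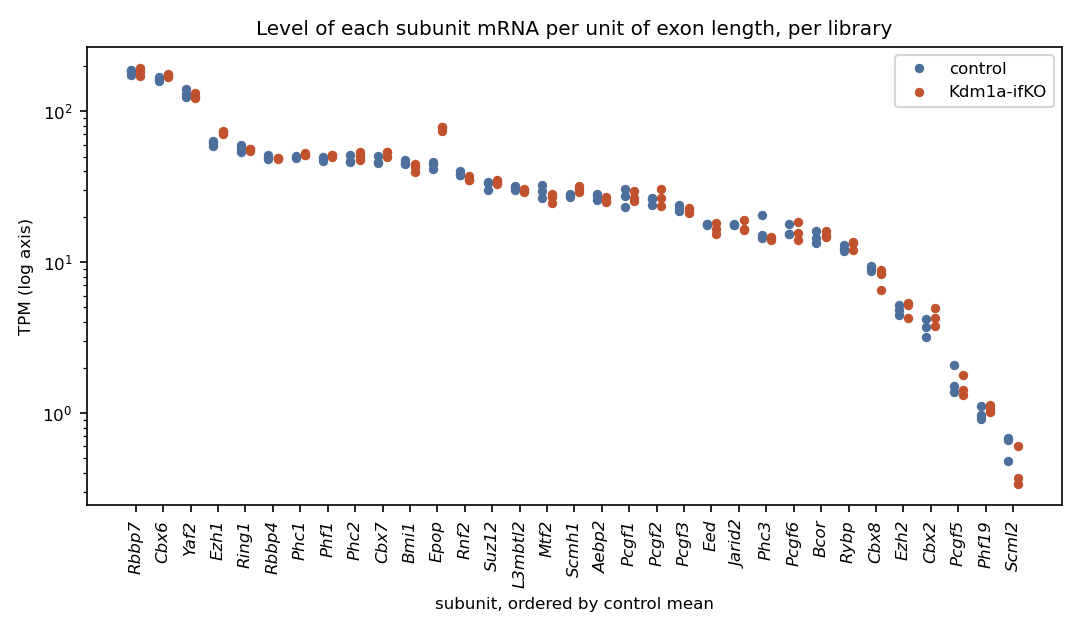
TPM of each subunit (y axis, log scale) per library, with subunits on the x axis ordered by their control mean and each point 1 mouse (blue, control; red, Kdm1a-ifKO). The order runs from Rbbp7 at 182 TPM to Scml2 at 0.611 TPM, and Epop is the gene whose red points stand clearly above the blue ones.

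Epop (ENSMUSG00000043439) lies on the minus strand of chromosome 11 from 97627389 to 97629702 (GRCm38, GENCODE M21) and overlaps no other annotated gene. Its mRNA measured 26.6, 26.1 and 24.2 CPM in the controls versus 42.9, 45.0 and 45.8 CPM in the Kdm1a-ifKOs. The lowest Kdm1a-ifKO value exceeded the highest control value, and the gap was larger than the spread within either group. The log2FC was 0.80 (standard error 0.0658, 95% interval 0.65 to 0.94, adjusted p = 4.33e-06, edgeR's quasi-likelihood test), which places Epop at percentile 97.5 of the log2FC of tested genes. With each library left out in turn, the log2FC stayed between 0.76 and 0.82 and the largest adjusted p was 5.51e-05. Without control replicate 3 and Kdm1a-ifKO replicate 2 together it also remained called. The summed levels of microglial, astrocytic and choroid plexus markers were higher in the same libraries, although the choroid plexus genes went both ways, and their part in this increase was not tested.

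Ezh1 (ENSMUSG00000006920) lies on the same chromosome and strand from 101191115 to 101226463 and likewise overlaps no other gene. It measured 109.9, 116 and 118 CPM in the controls versus 136, 129 and 137 CPM in the Kdm1a-ifKOs, without overlap. The log2FC was 0.23 (standard error 0.0523, 95% interval 0.12 to 0.34, adjusted p = 0.0163). This call lay close to the threshold of 0.05 and was lost when some single libraries were left out. The log2FC itself stayed between 0.20 and 0.25 whichever library was left out. Without control replicate 1, control replicate 2, Kdm1a-ifKO replicate 1 or Kdm1a-ifKO replicate 3, its log2FC was 0.20, 0.23, 0.22 or 0.21 and the adjusted p rose to 0.0546, 0.0529, 0.0712 or 0.0873. The part of these markers in this smaller increase was not tested either.

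Ezh2, the paralog that carries most PRC2 activity in dividing cells, was scarce. It measured 7.43, 8.71 and 8.12 CPM in controls versus 7.2, 8.58 and 8.99 CPM in Kdm1a-ifKOs, and the groups overlapped throughout. Its log2FC was 0.03 with a 95% interval from -0.24 to 0.30, so a change of a size within that range is not excluded. Ezh2 overlaps the unnamed models Gm26625 and Gm44282 on the opposite strand, and as the strand setting of the counting was not given, reads of these genes cannot be separated. Ezh1 supplied 92.7% ± 0.40 of the summed TPM of the pair in controls and 93.6% ± 0.74 in Kdm1a-ifKOs (SD, n = 3 each). In single libraries the ratio of Ezh1 to Ezh2 was 13.3, 11.9 and 13.1 in controls and 17, 13.5 and 13.7 in Kdm1a-ifKOs, so the groups did not overlap although the sets lay close. A permutation test of 3 mice against 3 cannot give an exact two-sided p under 0.1, so no p is given for ratios and shares. The summed markers of dividing cells (6 genes) were 11.5 to 13.5 CPM in controls versus 12.4 to 12.7 CPM in Kdm1a-ifKOs. Within that sum Birc5 was called higher (log2FC 1.41), and Top2a was lower in every Kdm1a-ifKO library but not called (log2FC -0.33).

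The region just upstream of the Ezh1 start is shown because Ezh1 was the catalytic subunit that rose. It covers the 250 bases before the start site given by RefSeq (GRCm38.p6, chr11:101226464-101226713, minus strand), with the 14 CpG dinucleotides in capitals.

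Ezh1 promoter: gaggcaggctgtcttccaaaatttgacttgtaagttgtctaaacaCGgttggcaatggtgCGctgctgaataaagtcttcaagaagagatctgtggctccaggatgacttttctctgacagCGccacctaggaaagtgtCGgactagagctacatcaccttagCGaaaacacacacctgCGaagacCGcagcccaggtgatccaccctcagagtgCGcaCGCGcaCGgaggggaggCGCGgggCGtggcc

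The 300-base window (250 bases before the start and 50 after) held none of the GC box (GGGCGG), the E-box with the central letters CG (CACGTG) and the TATA element (TATAAA) on either strand. The Ezh2 window held 31 CpGs against 23 for Ezh1, with ratios of observed to expected CpG of 0.999 and 0.882, and likewise none of the 3 motifs. RefSeq windows were matched for 28 of the 33 subunits (38 windows) and not for Yaf2, Rybp, Epop, Cbx2 and Pcgf1. The median window of the subunits held 23 CpGs, against 7 over 32851 windows of all genes, and 76.3% of the subunit windows had an observed to expected ratio over 0.6, against 35.8%. The GC box was found in 63.2% of the subunit windows and in 35.7% of all windows. The E-box was found in 18.4% and 7.15%, and the TATA element in 2.63% and 13.6%. Several windows belong to the same gene, and a match describes letters only.

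Among the other core subunits of PRC2, none was called. Suz12, the scaffold on which the complex assembles, measured 40.3 ± 2.94 CPM in controls versus 41.9 ± 1.59 CPM in Kdm1a-ifKOs (SD, n = 3 each), with a log2FC of 0.06. Eed, which binds trimethylated lysine 27 and stimulates the enzyme, measured 17.2 ± 0.180 and 15.96 ± 1.24 CPM (n = 3 each), with a log2FC of -0.10. The log2FC of the histone-binding paralogs Rbbp4 and Rbbp7 was -0.04 and -0.01, and Rbbp7 supplied 78.5% ± 0.490 of their summed TPM in controls and 78.9% ± 1.10 in Kdm1a-ifKOs (n = 3 each). The 95% intervals of Suz12, Rbbp4 and Rbbp7 lay between -0.15 and 0.20.

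The accessory subunits decide between the PRC2.1 subtype, with a Polycomb-like protein and in part Epop, and the PRC2.2 subtype, with Jarid2 and Aebp2. The Polycomb-like genes Mtf2, Phf1 and Phf19 were not called, with a log2FC of -0.15, 0.06 and 0.09. Mtf2 measured 38.2, 42.2 and 46.7 CPM in controls versus 35.5, 40.0 and 38.6 CPM in Kdm1a-ifKOs, where the groups overlapped. Jarid2, which brings PRC2 to chromatin, and Aebp2, a DNA-binding cofactor, had a log2FC of -0.04 and -0.09, with 95% intervals from -0.18 to 0.10 and from -0.21 to 0.04. Mtf2 overlaps Tmed5, and Phf1 overlaps Cuta, on the opposite strand.

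Epop therefore took a larger share of the summed TPM of these 6 accessory mRNAs. Its share was 27.6%, 26.2% and 24.9% in the controls and 38.7%, 38.5% and 39.1% in the Kdm1a-ifKOs, while the summed level went from 168 ± 2.70 to 198 ± 7.10 TPM (SD, n = 3 each). In controls Phf1 led with 28.9% ± 0.850 and Epop followed with 26.2% ± 1.40, whereas in Kdm1a-ifKOs Epop led with 38.8% ± 0.310 and Phf1 followed with 25.6% ± 0.370 (SD, n = 3 each). The shares of Mtf2, Phf1, Jarid2 and Aebp2 were below those of every control library, as shares sum to 100% and none of these 4 genes was itself called. The ratio of Epop to Jarid2 was 2.60, 2.52 and 2.35 in controls and 4.51, 4.13 and 4.77 in Kdm1a-ifKOs. The ratio to Mtf2 was 1.72, 1.52 and 1.28 against 2.98, 2.77 and 2.92. Neither ratio overlapped between the groups. The shares and their order depended on the length used. With the longest annotated transcript, Epop held 21.4% in controls, beside 21.9% for Aebp2 and 26.1% for Phf1, and led in Kdm1a-ifKOs with 32.7%. With CPM it held 11.5% and 19.1%, and Aebp2 led in both groups with 30.3% and 27.2%.

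**Figure D3:**
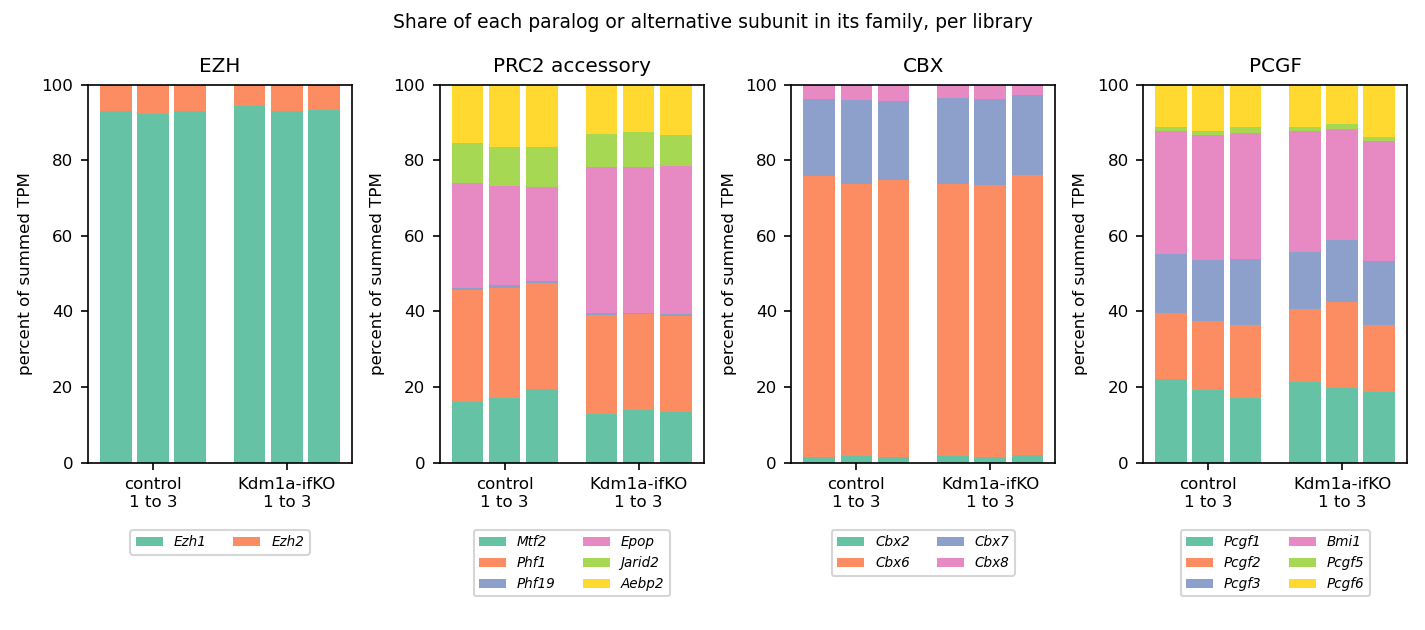
Share of each subunit in the summed TPM of its family (y axis, percent), as stacked bars with 1 bar per library (3 controls, then 3 Kdm1a-ifKOs) for the EZH pair, the PRC2 accessory subunits, the CBX and the PCGF subunits. Epop widens from between 24.9% and 27.6% to between 38.5% and 39.1%, and the CBX bars look alike in both groups.

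In PRC1, the catalytic pair Ring1 and Rnf2 had a log2FC of -0.03 and -0.11. Rnf2 measured 38.8, 39.1 and 41.6 CPM in controls versus 38.4, 36.0 and 36.2 CPM in Kdm1a-ifKOs, so that every Kdm1a-ifKO library was lower, but the difference did not pass the test (adjusted p = 0.304). Bmi1, the PCGF subunit of canonical PRC1 that represses the Cdkn2a locus, showed the same arrangement, with 44.6, 47.7 and 45.6 CPM against 44.4, 38.8 and 42.6 CPM (adjusted p = 0.236). These 2 genes were the members whose Kdm1a-ifKO libraries all lay below the controls, which is 6.06% of the members against 14.4% of all tested genes. Ezh1, Epop, Phc1 and Scmh1 all lay above, 12.1% against 15.7%. Rnf2 overlaps Trmt1l on the opposite strand.

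The PCGF paralogs define the PRC1 subtypes, with Pcgf2 and Bmi1 in canonical complexes and the others in variant ones. Their log2FC ranged from -0.15 (Pcgf5) to 0.06 (Pcgf2), and the interval of Pcgf5, at 5.28 ± 1.22 CPM in controls (SD, n = 3), ran from -0.55 to 0.25. Bmi1 supplied the largest share of PCGF TPM, 33% ± 0.46 in controls and 31.1% ± 1.5 in Kdm1a-ifKOs, and Pcgf5 the smallest, 1.2% ± 0.30 and 1.11% ± 0.20 (SD, n = 3 each). The lead of Bmi1 held for summed exon length. With the longest transcript Pcgf1 held 25.4% and Bmi1 24.3% in Kdm1a-ifKOs, and with CPM Pcgf3 led in controls with 34.1% against 28.7%. In Kdm1a-ifKO replicate 2 the ratio of Bmi1 to Pcgf2 was 1.30, and in the other 5 libraries it lay between 1.66 and 1.86.

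The CBX proteins read methylated lysine 27 for canonical PRC1. Cbx6 was the dominant paralog with 448, 433 and 422 CPM in controls versus 454, 443 and 466 CPM in Kdm1a-ifKOs, and it held 73.1% ± 1.30 and 72.6% ± 1.20 of the CBX TPM (SD, n = 3 each). Its log2FC of 0.07 had an interval from -0.04 to 0.17. Cbx6 overlaps Npcd on the same strand, and reads in the shared part may be split or discarded. Cbx7 measured 74.3, 82.3 and 73.7 CPM against 87.2, 86.1 and 81.3 CPM, where only the highest control reached into the Kdm1a-ifKO range. Its log2FC of 0.14 had an unadjusted p of 0.0311 and an adjusted p of 0.156 in edgeR's test. Cbx2 and Cbx8, at 3.98 ± 0.538 and 8.39 ± 0.357 CPM in controls (SD, n = 3 each), had a log2FC of 0.22 and -0.21 with intervals from -0.15 to 0.58 and from -0.49 to 0.07.

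Of the polyhomeotic subunits, which polymerize canonical PRC1, Phc1 measured 67.2, 66.2 and 65.2 CPM in controls versus 68.4, 69.1 and 68.5 CPM in Kdm1a-ifKOs. The groups did not overlap, yet the log2FC was only 0.05 (adjusted p = 0.578). Phc3 was set by 1 library, with 63.3, 66.2 and 90.2 CPM in controls against 63.3, 63.4 and 61.7 CPM. Control replicate 3 was the high one, and without it the log2FC of Phc3 went from -0.22 to -0.04. Scmh1, a sterile alpha motif partner of polyhomeotic, measured 54.5, 52.9 and 54.7 CPM against 56.9, 58.6 and 61.7 CPM, a log2FC of 0.13 with an unadjusted p of 0.0423 and an adjusted p of 0.186. With Ezh1, Epop and Cbx7 it made 4 members with an unadjusted p under 0.05, which is 12.1% against 24.5% of tested genes. Its paralog Scml2 was near the limit of detection, at 0.934 ± 0.176 and 0.666 ± 0.226 CPM (SD, n = 3 each), and supplied 2.15% of the pair's TPM in controls.

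**Figure D4:**
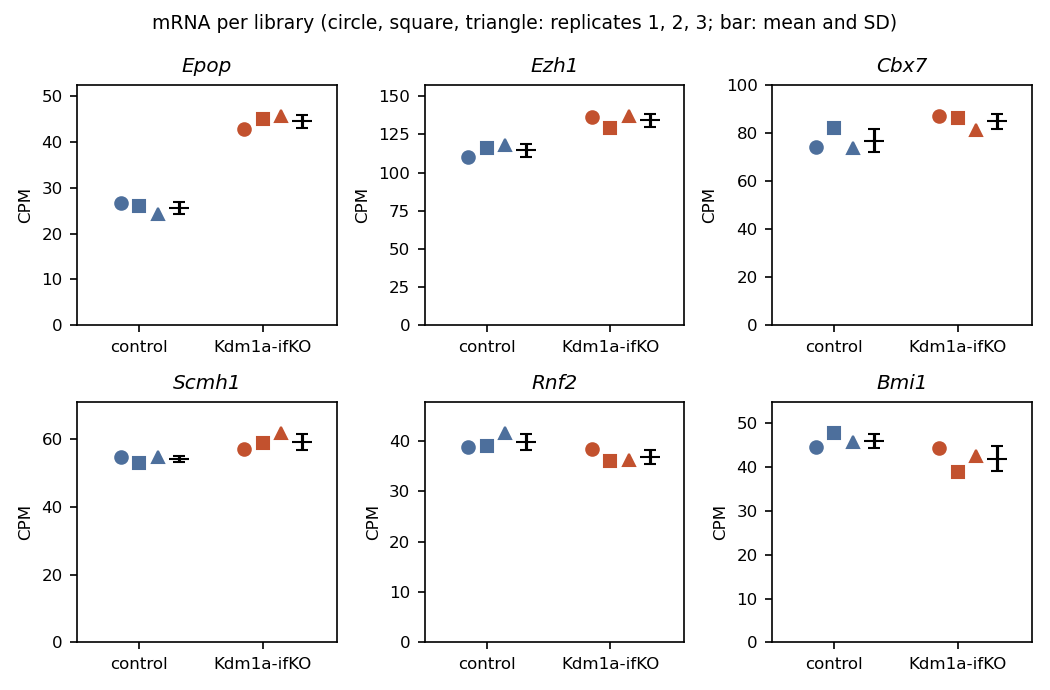
CPM (y axis, from 0) of 6 subunits in each library (circle, square and triangle for replicates 1, 2 and 3; blue, control; red, Kdm1a-ifKO), with the mean and SD of 3 mice beside them. Epop separates widely and Ezh1 narrowly, whereas Cbx7, Scmh1, Rnf2 and Bmi1 differ by little relative to their level and did not pass the test.

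Variant PRC1 uses Rybp or Yaf2 in place of a CBX protein. Yaf2 supplied 91.4% ± 0.092 of their TPM in controls and 90.7% ± 0.60 in Kdm1a-ifKOs (SD, n = 3 each). The ratio of Yaf2 to Rybp was 10.6, 10.8 and 10.7 in controls and 9.91, 9.0 and 10.3 in Kdm1a-ifKOs and did not overlap, while the genes themselves had a log2FC of -0.07 and 0.07 and were not called. Bcor, the scaffold of the Pcgf1 complex, and L3mbtl2, a subunit of the Pcgf6 complex, had a log2FC of 0.05 and -0.07. L3mbtl2 overlaps Chadl on the opposite strand. In all, 14 of the 33 members overlap a gene on the opposite strand and 17 overlap none.

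Beyond the listed subunits, 34 further genes of the pathway were examined, among them the H3K27 demethylases Kdm6a and Kdm6b, the PR-DUB complex that removes ubiquitin from H2A, and partners of variant PRC1. All 34 were tested, 2 were called higher and none lower, and 10 had an unadjusted p under 0.05. These are 5.88% called higher against 6.04% of all tested genes, and 29.4% with an unadjusted p under 0.05 against 24.5%, so both shares were near the background. Bcorl1, a paralog of Bcor, measured 30.8, 28.3 and 27.1 CPM in controls versus 34.0, 34.0 and 36.3 CPM in Kdm1a-ifKOs, a log2FC of 0.27 (adjusted p = 0.0279). Scml4 measured 5.18, 4.99 and 4.84 CPM against 7.61, 8.53 and 5.85 CPM, a log2FC of 0.55 (adjusted p = 0.0408). Scml4 overlaps unnamed gene models on both strands. Neither was called by DESeq2. Bcorl1 kept its call only without control replicate 1 or Kdm1a-ifKO replicate 2, and Scml4 only without Kdm1a-ifKO replicate 3, when single libraries were left out. The demethylases had a log2FC of -0.15 (Kdm6a) and -0.02 (Kdm6b), and all 7 PR-DUB genes missed the threshold.

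Of 20 regulators that are textbook targets of Polycomb repression, only 3 passed the filter on low counts. Myod1, the master regulator of skeletal muscle, was called higher, with 1, 1 and 3 counts in controls and 44, 32 and 49 counts in Kdm1a-ifKOs (log2FC 4.50, adjusted p = 1.78e-05). Myod1 passed the filter only through the Kdm1a-ifKO libraries, where it was high. Targets silent in both groups could not be tested. The 1 called higher of 3 tested is 33.3%, against 6.04% of all tested genes. For this reason the 2 shares cannot be compared, and the call says nothing about the targets as a set. Sox17 and Cdkn2b both had a log2FC of 0.18 and were not called. Of the 17 others, 12 had at most 3 counts summed over each group, and 7 were at 0 in all 6 libraries (Hoxa9, Hoxd13, Gata4, Foxa2, Olig3, Nkx2-5 and Tbx5). A count of 0 allows up to 3 counts per library at this depth, which covers counting error only.

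The CTCF ChIA-PET library described where subunit genes lie in loops of excitatory neurons that were WT for Kdm1a. It held 27786 loops with between 3 and 1242 paired-end tags (PETs), a median of 5 PETs and a median span of 115 kb. A loop anchor lay within 10 kb of the gene body for 16 of the 33 subunits, or 48.5%, against 56.9% of 16758 located tested genes. Within 2 kb of an annotated start site it was 9 subunits, or 27.3% against 28.7%. There is 1 library and no replicate check.

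Both genes that rose had such anchors. Epop had 12 loops with 62 PETs in all and at most 9 in one, and its start site lay inside the anchor chr11:97629468-97631674, which was joined by 8 PETs to an anchor 15.0 kb further upstream. Ezh1 also had 12 loops, with 84 PETs in all, of which 10 had an anchor reaching into the gene body and 2 joined positions within it. Its strongest loop, with 24 PETs, ran 23.6 kb from the gene body to a point beyond its 3′ end. Ezh2, Eed, Rbbp4, Rbbp7, Mtf2, Phf1, Phf19 and Aebp2 of PRC2 had none, nor had 9 PRC1 genes (Pcgf3, Bmi1, Phc3, Scmh1, Scml2, Rybp, Yaf2, Bcor and L3mbtl2). Loops were thus not restricted to subunits that rose. Cbx7 had 26 loops with 217 PETs, Cbx6 had 18 with 119 PETs, and Pcgf5, which was not called, had a loop of 55 PETs.

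Some loops joined subunit genes with each other. Cbx2 and Cbx8, neighbours on chromosome 11, were joined by 17 PETs over 11.3 kb. Cbx6 and Cbx7 on chromosome 15 were joined by 8 loops of 3 to 6 PETs, with spans from 78.7 to 114 kb. An anchor downstream of Epop was joined by 3 PETs, the minimum kept, to Pcgf2 at 71.4 kb. In RNA these partners did not share a call, since Pcgf2 had a log2FC of 0.06 and an interval from -0.13 to 0.26. In all, 6 of the 33 subunits lie on chromosome 11, which holds 7.95% of the tested genes. Cbx2 and Cbx8 are neighbours there and Epop lies near Pcgf2, so the 6 are not independent. Whether their number exceeds the background was not tested.

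**Figure D5:**
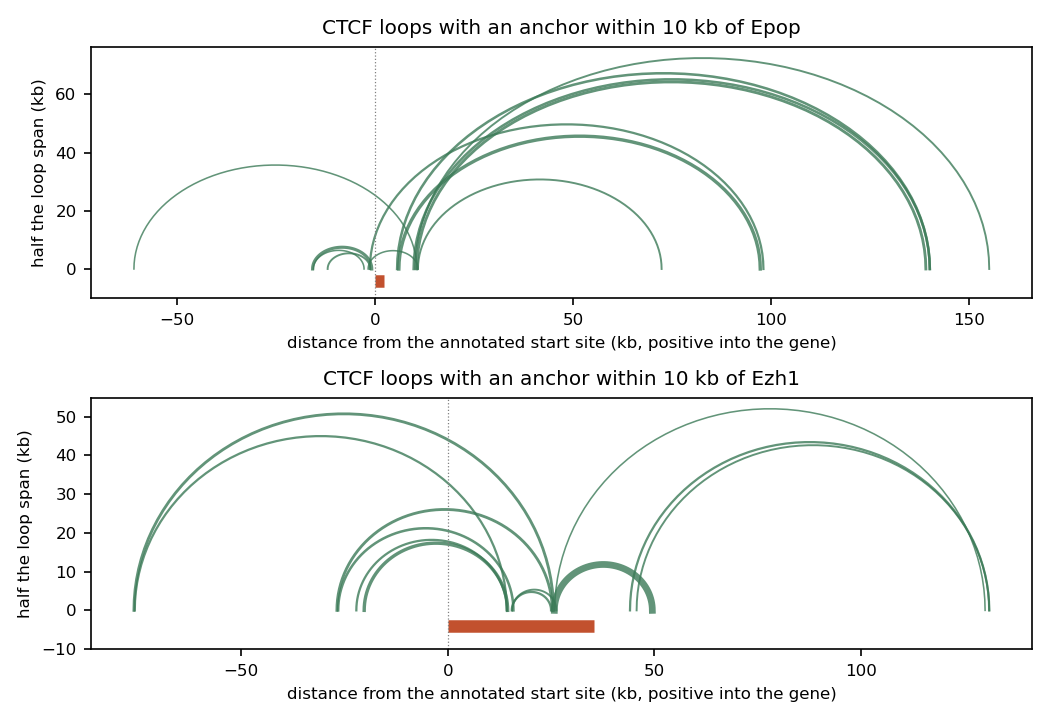
CTCF loops of excitatory neurons that were WT for Kdm1a (1 library) near Epop and Ezh1, drawn as arcs between anchor midpoints on the distance from the start site (x axis, kb, positive into the gene). Arc height is 50% of the loop span (y axis, kb), line width grows with PETs, and the red bar is the gene. Of the Epop arcs, 3 span the gene, the longest at 99.3 kb, and the thickest Ezh1 arc is the 24-PET loop.

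Matches to a short form of the CTCF motif were searched on both strands of these anchors. The form has 12 letters, which are the capitals of the windows below with any base allowed at positions 4, 5, 8 and 9. A match was found in 6 of the 24 anchors of Epop loops and in 5 of the 24 anchors of Ezh1 loops, against 39.5% of all 55480 anchors over their whole length and 30.1% within their central 1000 bases. Anchors of different loops of a gene overlap each other. The windows are shown because 4 of the 7 distinct matches around Epop resembled each other, and the Ezh1 match because it lay inside the gene. Capitals mark the motif, and each sequence is written on the strand of the match (GRCm38, RefSeq).

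Epop, 2.80 kb before the start site, chr11:97632470-97632529, plus strand: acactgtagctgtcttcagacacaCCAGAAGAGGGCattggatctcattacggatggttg
Epop, 9.12 kb past the start site, chr11:97620550-97620609, minus strand: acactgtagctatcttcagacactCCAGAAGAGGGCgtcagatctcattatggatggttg
Epop, 16.7 kb before the start site, chr11:97646373-97646432, plus strand: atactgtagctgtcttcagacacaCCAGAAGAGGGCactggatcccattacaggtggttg
Ezh1, 13.4 kb past the start site, chr11:101213015-101213074, minus strand: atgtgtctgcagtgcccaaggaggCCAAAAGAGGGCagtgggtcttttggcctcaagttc

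The first Epop window shares 54 of 60 bases with the second and 55 with the third, and the second and the third share 49. In GENCODE M21 the first lies between genes, the second in an intron of 2410003L11Rik, the third in an exon of Gm11613, both non-coding, and the Ezh1 window in an intron. All bases of the 3 Epop windows are soft-masked, the marking of repeats in the RefSeq sequence, as are 65.0% of those of the Ezh1 window. Reads from repeats can be hard to place, and whether CTCF bound these letters was not tested.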

How the data were processed

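The authors trimmed single-end poly-A reads (cutadapt 1.18), aligned them to mm10 (HISAT2 2.1.0), kept mapping quality over 30 on nuclear chromosomes and counted per Ensembl gene with HTSeq 0.11.1. The deposited values are raw counts, and the strand setting was not given in the sources used here. The authors made the loops with ChIA-PIPE and kept loops of 3 or more PETs whose anchors each held a CTCF peak, and their deposited PET counts are not normalized.

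Genotypes were compared with edgeR 4.0.16 in R 4.3.3, using TMM, filterByExpr, robust quasi-likelihood F tests and Benjamini-Hochberg adjustment over 16799 genes, at an adjusted p of 0.05. The standard error is the absolute log2FC divided by the square root of F. The script was tested on simulated data. TPM used summed exon length from GENCODE M21, which held 48435 of 48795 genes (99.3%). Promoter windows came from RefSeq (GRCm38.p6), as given for 28 subunits. Library totals of 18985542 to 19469947 counts set the precision, with 92 counts over 6 libraries for the scarcest member.

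Named genes were all members, Kdm1a, and pathway or target genes with an adjusted p under 0.05. Values of other pathway and target genes, and the sequences shown, were picked after the values were seen. The members and lists were chosen with earlier results of these data known. The p-values weigh the difference between genotypes against the spread between mice, which edgeR estimated with information from all tested genes. Alternatives were DESeq2 1.42.0, other normalizations and filters, a replicate block, each library left out in turn, other gene lengths and other loop rules. One alternative, leaving out control replicate 3 and Kdm1a-ifKO replicate 2 together, was added after the data were seen.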

Additional observations from a re-analysis of the deposited data

How the results depend on the processing

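Epop was called in every alternative, with a log2FC from 0.75 to 0.82. The number of subunits called higher was 2 in all settings that kept the 6 libraries and 1 to 2 with single libraries left out (Epop only, without control replicate 1 or 2 or Kdm1a-ifKO replicate 1 or 3). Without a filter on low counts 1 subunit, Phc3, was called lower (log2FC -0.22, adjusted p = 0.0170). For the other pathway genes, those called higher numbered 0 with DESeq2, 5 without the filter and 0 to 2 with a library left out. Those called lower numbered 2 without the filter and 0 to 1 with a library left out. With the replicate number as a block, 2 subunits were called higher, as without it, and 0 pathway genes. Same-numbered libraries of the genotypes did not deviate together (correlations -0.03, -0.09 and -0.14). With 3 libraries per group, these correlations cannot show whether the numbers pair mice.

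Signs turned only in genes that were not called. Upper-quartile normalization gave 0.019 for Rbbp7, 0.02 for Pcgf1 and 0.011 for Pcgf6, no filter gave 3.96e-05 for Pcgf1, and leaving out control replicate 3 with Kdm1a-ifKO replicate 2 gave 0.018 for Rbbp7 and 0.047 for Pcgf6. With single libraries left out, the log2FC ranged from -0.037 to 0.12 for Ezh2, from -0.00138 to 0.089 for Suz12, from -0.056 to 0.040 for Rbbp7, from -0.10 to 0.088 for Pcgf1, from -0.027 to 0.14 for Pcgf2, from -0.28 to 0.056 for Pcgf5, from -0.14 to 0.077 for Pcgf6 and from -0.0085 to 0.12 for Bcor. With the longest transcript as length, or with CPM, the control share was 90.4% or 93.4% for Ezh1, 21.4% or 11.5% for Epop and 77.5% or 83.0% for Cbx6. Subunits with an anchor numbered 9 within 2 kb of a start site, or 27.3% against 28.7% of tested genes. For loops of 10 or more PETs they also numbered 9, or 27.3% against 35.4%. The causes were not tested.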
